A study of Mus musculus with 4 samples.

Results

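Expression of 9 coagulation and fibrinolysis genes, *F3*, *F8*, *Thbd*, *Procr*, *Tfpi*, *Gas6*, *Plau*, *Plaur* and *Plat*, was examined in mouse liver sinusoidal endothelial cells (LSECs) with or without siRNA against the lncRNA *Airn*. They were taken by symbol as endothelial genes that promote or restrain clotting or start fibrin breakdown, and all 9 were present among the 18373 genes of the deposited table. Both groups consisted of primary LSECs from 8-week-old Balb/c mice, which per the methods were enriched with anti-CD146 beads, kept in culture and transfected for 48 h, with cells described as day 3 in the labels. The NC group received the control siRNA and the si*Airn* group received siRNA against *Airn*, with 2 libraries each. The labels call the libraries biological replicates without saying whether each came from its own mouse, so the spread between them may be partly technical and the p-values measure only that spread. The labels name si*Airn*1 in both libraries whereas the methods speak of 2 separate siRNAs, so the siRNA in each library is uncertain.

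An unbroken vessel wall keeps blood fluid because the endothelial surface carries inhibitors of clotting and releases activators of fibrinolysis. Tissue factor, encoded by *F3*, starts the clotting cascade, and factor VIII, encoded by *F8*, amplifies it as a cofactor of factor IX. Thrombin bound to thrombomodulin (*Thbd*) activates protein C, which is presented to it by the endothelial protein C receptor (*Procr*), while *Tfpi* blocks the complex of tissue factor and factor VII. Urokinase and tissue plasminogen activator (*Plau*, *Plat*) turn plasminogen into plasmin, which breaks down fibrin. LSECs are known as a main site of factor VIII synthesis.

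The deposited counts summed to between 17308382 and 18371959 per library. Members had between 53.00 and 7773 counts per library, and only *Plat* had fewer than 100 in any library. For *Airn* itself, 7 and 3 reads were counted under the NC label, against 11 and 9 under the si*Airn* label. It was not lower under the siRNA label, but so few reads cannot show a knockdown or its absence. The paper reports efficient knockdown by the siRNAs it went on to use. All directions below follow the labels. The LSEC identity markers were present, with a summed level of 4631 to 4713 CPM (counts relative to the library total after TMM scaling) in NC and 3229 to 3575 CPM in si*Airn* over 13 genes, none of them at 0 in all libraries, and the 13 pan-endothelial markers summed to 11420 to 12070 CPM and to 7572 to 8676 CPM. Each of the 13 pan-endothelial markers had a negative log2 ratio of si*Airn* to NC, 11 of them without overlap of the groups (62.7% of all genes did not overlap) and 10 with an edgeR adjusted p under 0.05 (8.56% of all genes were called lower). In bulk RNA fewer cells of a type and less RNA per cell cannot be told apart.

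Of the 9 members, 4 passed an adjusted p of 0.05 between si*Airn* and NC (edgeR, quasi-likelihood; Benjamini-Hochberg adjustment over all genes). *Thbd* rose, whereas *Procr*, *Tfpi* and *Gas6* fell. Over all 13628 genes tested, 16.8% were called, 8.27% as higher and 8.56% as lower in si*Airn*. The study's own cutoff, a 1.4-fold change with unadjusted p below 0.05, was passed by 2 members, *Procr* and *Gas6*, beside 9.96% of all genes. The 2 groups of libraries did not overlap for 6 members (*F3*, *Thbd* and *Plau* higher, *Procr*, *Tfpi* and *Gas6* lower), beside 62.7% of all genes, which is close to the members' share. The median log2 ratio of the 9 members was -0.29, and over all genes tested it was 0.00126. By role, the 3 anticoagulant genes *Thbd*, *Procr* and *Tfpi* and the ligand gene *Gas6* were called. Neither the 2 procoagulant genes nor the 3 genes of plasminogen activation were called. Of these 5, 0 had an unadjusted p under 0.05 by the quasi-likelihood test, and DESeq2 called 0. With the replicate number as a block, *F8* and *F3* were called (edgeR adjusted p = 0.00109 and 0.0376). After removal of the trend on GC content and transcript length, *F8* was called (edgeR adjusted p = 0.0308) and *Procr* was not (0.0734). With 3 libraries edgeR called 40 of all genes without NC replicate 1 and 0 without NC replicate 2 (3506 and 3106 genes had an unadjusted p under 0.05). No member was called in either of these fits (5 and 6 members had an unadjusted p under 0.05), while 5 were called when si*Airn* replicate 1 was left out and 2 (*Procr* and *Gas6*) when si*Airn* replicate 2 was.

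**Figure D1:**
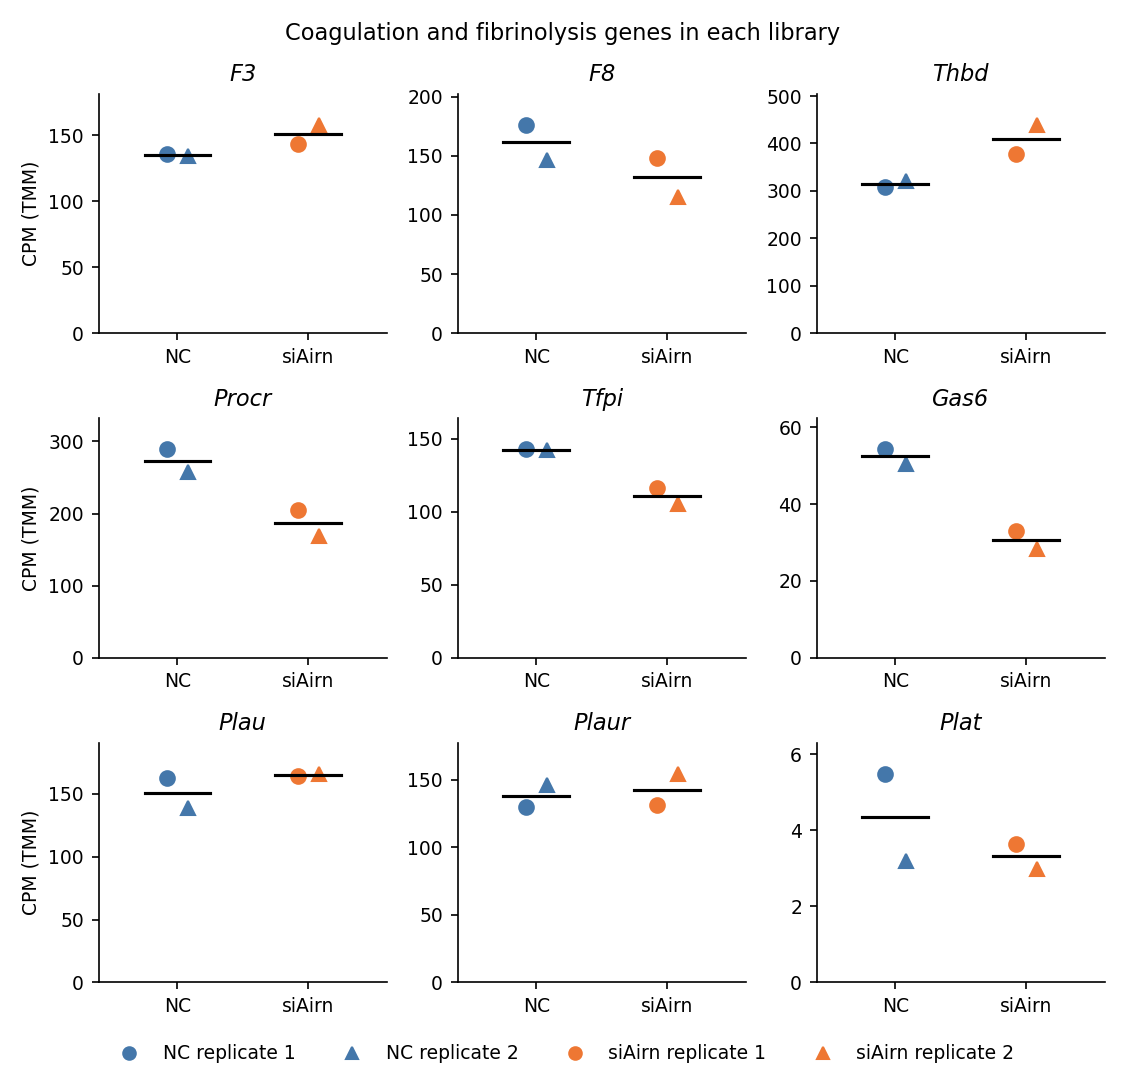
Level of each gene in the 4 libraries in CPM with TMM scaling, on axes that start at 0. Points are single libraries and bars are group means; the si*Airn* points lie above both NC points for *F3*, *Thbd* and *Plau*, below both for *Procr*, *Tfpi* and *Gas6*, and overlap them for *F8*, *Plaur* and *Plat*.

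Promoter windows of 300 bases, from 250 before to 50 after an annotated start, were available from RefSeq (GRCm38.p6) for 6 of the 9 members. *Thbd*, *Plat* and *Plau* were not matched. They were searched on both strands for the letters TGANTCA, bound by AP-1 factors, CACCC, bound by Kruppel-like factors such as KLF2, and GGGCGG, bound by SP1. The AP-1 letters occur in 7.81% of all 32851 windows, the CACCC letters in 57.5% and the GGGCGG letters in 35.7%. The shares of windows with 2 or more matches are 0.46%, 25.7% and 19.5%, in the same order. The windows of *F3*, *Procr* and *Plaur* are shown because they held the AP-1 letters, in capitals. *F3* had 2 matches, which began at positions -146 and -135 relative to the start, the latter overlapping a CACCC match, whereas *Procr* had 1 at position -154 and *Plaur* 1 at position -69. The positions are chr3:121723287-121723586, plus strand for *F3*, chr2:155750967-155751266, plus strand for *Procr* and chr7:24462233-24462532, plus strand for *Plaur*.
F3: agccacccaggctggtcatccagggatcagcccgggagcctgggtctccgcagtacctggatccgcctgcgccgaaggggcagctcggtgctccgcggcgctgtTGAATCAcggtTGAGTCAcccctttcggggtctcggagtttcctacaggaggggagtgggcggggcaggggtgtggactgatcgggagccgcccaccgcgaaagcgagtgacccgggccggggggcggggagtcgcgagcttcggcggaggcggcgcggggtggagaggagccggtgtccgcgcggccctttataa
Procr: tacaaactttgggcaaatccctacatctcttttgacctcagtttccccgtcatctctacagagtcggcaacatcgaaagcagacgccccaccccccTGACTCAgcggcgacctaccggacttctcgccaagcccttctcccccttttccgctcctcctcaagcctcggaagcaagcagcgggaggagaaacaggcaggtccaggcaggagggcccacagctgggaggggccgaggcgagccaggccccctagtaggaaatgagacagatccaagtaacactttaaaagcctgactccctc
Plaur: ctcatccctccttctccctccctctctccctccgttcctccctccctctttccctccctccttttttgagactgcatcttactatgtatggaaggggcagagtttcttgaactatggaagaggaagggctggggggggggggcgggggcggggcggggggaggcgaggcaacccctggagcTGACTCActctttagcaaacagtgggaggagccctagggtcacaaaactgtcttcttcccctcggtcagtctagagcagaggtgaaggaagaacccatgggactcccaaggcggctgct

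The *Gas6* window, at chr8:13494486-13494785, minus strand, is shown with its CACCC letters (or GGGTG, the same on the other strand) in capitals, because *Gas6* was called and had 5 such matches. Of these, 1 overlaps a GGGCGG match on the opposite strand. *F3* had 4, *Procr* 1 and each of the 2 *Tfpi* windows 1, while the windows of *Plaur* and *F8* held none. A match is a stretch of letters and was not tested for binding.
Gas6: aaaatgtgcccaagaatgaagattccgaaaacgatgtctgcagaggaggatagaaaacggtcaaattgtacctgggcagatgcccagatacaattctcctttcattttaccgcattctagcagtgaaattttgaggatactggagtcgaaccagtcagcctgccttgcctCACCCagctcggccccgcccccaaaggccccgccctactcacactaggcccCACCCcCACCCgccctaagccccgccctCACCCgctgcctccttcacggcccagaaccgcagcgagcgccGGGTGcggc

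Thrombomodulin was the only member that rose past the threshold. *Thbd* (gene ID 21824) had 309 and 321 CPM in NC replicates 1 and 2, and 377 and 439 CPM in si*Airn* replicates 1 and 2. Both si*Airn* libraries lay above both NC libraries, and the gap between the groups was wider than the spread within NC, though not than that within si*Airn*. The mean went from 315.0 ± 8.07 to 408 ± 43.9 CPM (mean ± SD of 2 libraries per group), which gave a log2 ratio of 0.37 (SE 0.08, 95% interval from 0.18 to 0.57, edgeR adjusted p = 0.0278). *Thbd* was also called by each of the 9 alternatives that kept all 4 libraries and an adjusted p, with log2 ratios from 0.36 to 0.41, but at 1.30-fold it was under the study's cutoff. Among the fits with 1 library left out, it was called without si*Airn* replicate 1 (0.48) but not without si*Airn* replicate 2 (0.26, edgeR adjusted p = 0.0768), NC replicate 1 (adjusted p = 0.153) or NC replicate 2 (adjusted p = 0.146).

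*Procr* (gene ID 19124), the receptor that hands protein C to thrombomodulin, moved the other way. It had 289 and 257 CPM under NC, against 204 and 169 CPM under si*Airn*, and the lowest NC library was above the highest si*Airn* library. The mean fell from 273 ± 22.5 to 186.5 ± 25.2 CPM (mean ± SD of 2 libraries per group), which gave a log2 ratio of -0.55 (SE 0.11, 95% interval from -0.80 to -0.30, edgeR adjusted p = 0.0187). It stayed called when either si*Airn* library was left out (-0.70 and -0.42 for replicates 1 and 2), but not without NC replicate 1 (-0.47, edgeR adjusted p = 0.115) or NC replicate 2 (-0.63, adjusted p = 0.108). Removal of the trend on GC content and transcript length gave -0.42 and also ended the call (edgeR adjusted p = 0.0734).

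*Thbd* and *Procr* act on the same substrate, so their levels per transcript length were also set against each other within each library. The ratio of *Thbd* to *Procr* FPKM was 0.410 and 0.477 in the NC libraries, against 0.704 and 0.996 in the si*Airn* libraries. In all 4 libraries *Procr* was the higher of the pair, and in si*Airn* replicate 2 the difference was within 1 FPKM (123 FPKM for *Thbd* and 124 FPKM for *Procr*). The pair was chosen after the values were seen, and an exact permutation test of 2 against 2 libraries cannot give a p below 0.333, so the ratio is given without a test.

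*Tfpi* (gene ID 21788), the inhibitor of the tissue factor pathway, had 142.9 and 142.6 CPM under NC, against 116 and 105 CPM under si*Airn*. The NC libraries were nearly equal and both si*Airn* libraries lay under them. Its mean fell from 142.7 ± 0.215 to 110.7 ± 7.83 CPM (mean ± SD of 2 libraries per group), which gave a log2 ratio of -0.37 (SE 0.07, 95% interval from -0.53 to -0.20, edgeR adjusted p = 0.0194). All 9 alternatives with 4 libraries and an adjusted p called it, with the farthest value, -0.50, after the GC and length trend was removed, though its 0.776-fold level did not reach the study's cutoff. With si*Airn* replicate 2 left out it was -0.30 and missed the threshold (edgeR adjusted p = 0.0591), as it did without NC replicate 1 (adjusted p = 0.104) and NC replicate 2 (adjusted p = 0.128). In GENCODE M21, 0.162% of the 50-base windows of the *Tfpi* transcripts occur in other genes, so its counts are hardly shared.

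*Gas6* (gene ID 14456), a vitamin K-dependent ligand of the TAM receptor kinases that resembles protein S, showed a larger decrease than the other members with all 4 libraries, except after removal of the GC and length trend (-0.62 for *Gas6* and -0.64 for *F8*). It had 54.2 and 50.5 CPM under NC, against 33.1 and 28.4 CPM under si*Airn*. No library of one group came near the other group. The mean fell from 52.4 ± 2.61 to 30.7 ± 3.32 CPM (mean ± SD of 2 libraries per group), which gave a log2 ratio of -0.77 (SE 0.10, 95% interval from -0.997 to -0.54, edgeR adjusted p = 0.00751), which is 0.587 times the NC level. Each of the 9 alternatives with 4 libraries called it, between -0.78 and -0.62, and the call was lost without NC replicate 1 (edgeR adjusted p = 0.071) and NC replicate 2 (adjusted p = 0.0883). Exons of *Tmem255b* on the opposite strand cover 1.33% of its exonic bases in GENCODE M21, and the use of strand in the counting is not given in the sources used here.

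**Figure D2:**
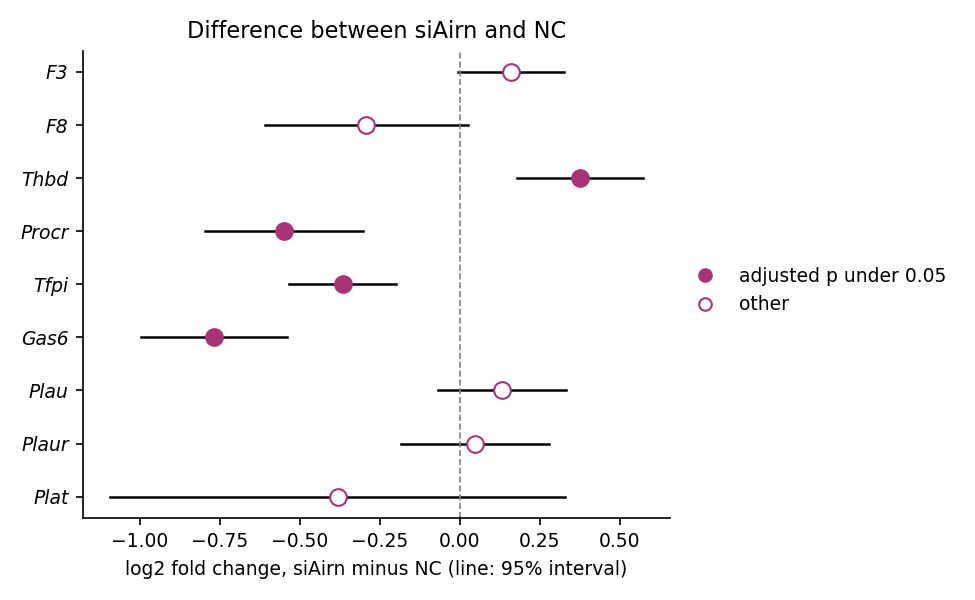
Log2 ratio (log2 fold change) of si*Airn* to NC for each gene, with the 95% interval from edgeR's quasi-likelihood fit as a line and filled points for an adjusted p under 0.05. The intervals of *Procr*, *Tfpi* and *Gas6* lie below 0, that of *Thbd* lies above 0, and those of the other 5 genes include 0.

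Factor VIII was not called in the main edgeR fit. *F8* (gene ID 14069) had 176 and 147 CPM under NC, against 148 and 115 CPM under si*Airn*. The highest si*Airn* library was above the lowest NC library, so the groups overlapped. Its mean was 161.5 ± 20.8 CPM under NC, against 131.9 ± 23.3 CPM under si*Airn* (mean ± SD of 2 libraries per group), which gave a log2 ratio of -0.29 (SE 0.13, 95% interval from -0.61 to 0.02, edgeR adjusted p = 0.173). The interval therefore allows a decrease larger than that of *Procr* as well as no change. In each group replicate 2 had the lower level, at 0.833 times replicate 1 in NC and 0.778 times in si*Airn*. The value depended on the processing, since removal of the trend on GC content and length gave -0.64 and an edgeR adjusted p of 0.0308, and leaving out si*Airn* replicate 1 gave -0.49 and an adjusted p of 0.0132. With the replicate number as a block, *F8* was called (-0.30, edgeR adjusted p = 0.00109), although the libraries share only a number. *F8* had a log2 ratio nearer 0 when NC replicate 1 (-0.16) or si*Airn* replicate 2 (-0.12) was left out. Its longest GENCODE M21 transcript is the longest of the 9 (9784 bases, with 39.0% G and C).

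The genes whose levels followed *F8* most closely over the 4 libraries, by Euclidean distance of centred log2 CPM among 10744 other genes averaging 5 CPM or more, were a gene without a name (BGIG10090_48014, distance 0.0281), *Csgalnact1* (0.0343), an enzyme of chondroitin sulfate synthesis, and *Cav2* (0.0363), a component of caveolae. The log2 ratios of these 3 genes were -0.28, -0.33 and -0.29. With only 4 libraries, 26 genes lay within 0.1 of *F8*.

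The carriers of factor VIII were not called. *Lman1* and *Mcfd2*, which together export factor VIII from the endoplasmic reticulum, had log2 ratios of 0.03 and -0.00386 (edgeR adjusted p = 0.794 and 0.979). *Vwf*, whose product stabilises factor VIII in blood, was low and uneven, with 7.12 and 2.54 CPM under NC, against 5.14 and 1.87 CPM under si*Airn* (log2 ratio -0.45, edgeR adjusted p = 0.614). Replicate 2 was the lower of each pair for *Vwf* as for *F8*.

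Tissue factor was not called in the main edgeR fit either. *F3* (gene ID 14066) had 136 and 134 CPM under NC, against 144 and 158 CPM under si*Airn*. Both si*Airn* libraries were higher, si*Airn* replicate 1 by a small margin. The mean was 134.9 ± 0.959 CPM under NC, against 150.8 ± 10.1 CPM under si*Airn* (mean ± SD of 2 libraries per group), which gave a log2 ratio of 0.16 (SE 0.07, 95% interval from -0.00458 to 0.33, edgeR adjusted p = 0.156). Without si*Airn* replicate 2 it was 0.09. With the replicate number as a block, *F3* was called (0.16, edgeR adjusted p = 0.0376). Per transcript length, *F3* exceeded *Tfpi* in each library, with a ratio of FPKM of 1.13 and 1.11 in NC and 1.497 and 1.85 in si*Airn*. That ratio was also chosen after the values were seen and carries no test.

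The genes of plasminogen activation showed no call. *Plau* (gene ID 18792) encodes urokinase and *Plaur* (gene ID 18793) its receptor, which holds urokinase at the cell surface. *Plau* had 163 and 139 CPM under NC, against 164 and 166 CPM under si*Airn*, so that NC replicate 2 stood apart from 3 similar libraries. Its log2 ratio was 0.13 (SE 0.08, 95% interval from -0.07 to 0.33, edgeR adjusted p = 0.317), and 0.02 without NC replicate 2. *Plaur* had 130.0 and 146 CPM under NC, against 131 and 154 CPM under si*Airn*. Replicate 2 was higher than replicate 1 in both groups, and the log2 ratio was 0.05 (SE 0.10, 95% interval from -0.18 to 0.28, edgeR adjusted p = 0.768). These intervals exclude a change as large as that of *Gas6* in either direction.

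*Plat* (gene ID 18791), the tissue plasminogen activator, was the least abundant member. It had 94.00 and 58.00 counts under NC, against 66.00 and 53.00 under si*Airn*, or 5.49, 3.21, 3.65 and 3.00 CPM. The NC libraries were farther apart than the group means, since NC replicate 2 lay between the si*Airn* libraries. Its log2 ratio was -0.38 (SE 0.30, 95% interval from -1.09 to 0.33, edgeR adjusted p = 0.412), which moved to 0.05 when NC replicate 1 was left out and to -0.72 when NC replicate 2 was. A difference the size of that of *Gas6* lies within this interval, as does no change.

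Compared per transcript length in FPKM (fragments scaled to transcript length and library total), the protein C receptor gene *Procr* was the most abundant member in NC, at 195.6 ± 16.5 FPKM, and *Plat* the least, at 1.76 ± 0.658 FPKM (SD, n = 2 each). Between them came *Plaur* (97.7 FPKM), *Thbd* (86.4 FPKM), *F3* (78.2 FPKM), *Tfpi* (70.0 FPKM), *Plau* (67.5 FPKM), *F8* (20.9 FPKM) and *Gas6* (20.9 FPKM). Neighbours in this order did not overlap between libraries except *Tfpi* with *Plau* and *F8* with *Gas6*, whose library values crossed. In si*Airn* the order was *Procr* (137.8 FPKM), *Thbd* (115.0 FPKM), *Plaur* (103.9 FPKM), *F3* (89.2 FPKM), *Plau* (76.1 FPKM), *Tfpi* (53.8 FPKM), *F8* (17.7 FPKM), *Gas6* (12.6 FPKM) and *Plat* (1.39 FPKM). Only *Thbd* and *Plaur* overlapped there. The urokinase gene *Plau* thus kept a level far above that of the tissue plasminogen activator gene *Plat* in each library, at 32.7 to 61.3 times its FPKM.

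**Figure D3:**
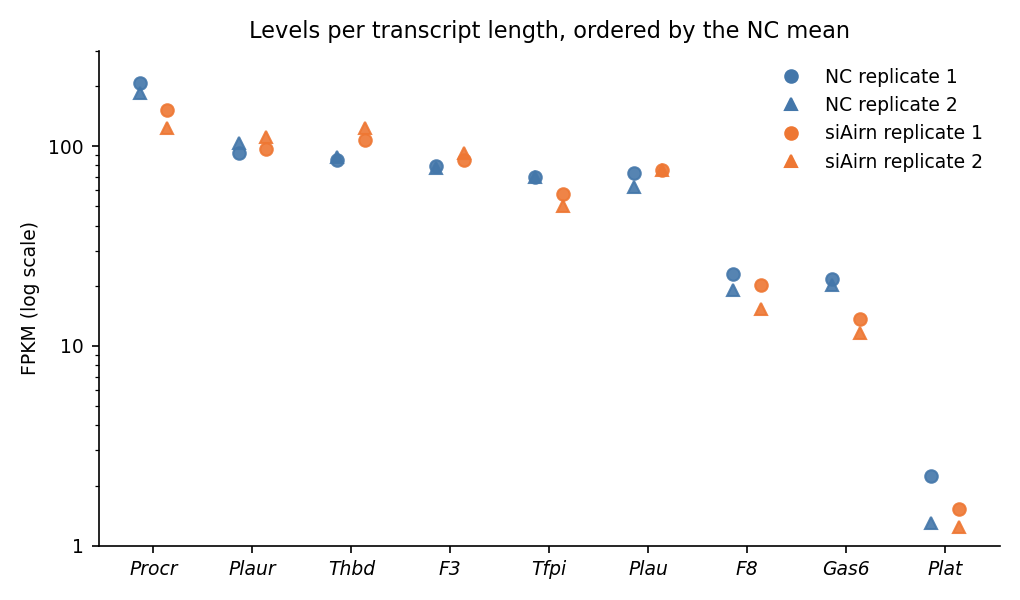
FPKM of each gene in the 4 libraries on a log scale, in the order of the NC means. *Procr* stands highest in both groups and *Plat* lowest, with *F8* and *Gas6* between the other 6 genes and *Plat*.

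Of the 9 transcription factors listed as acting on *Thbd* or *F3*, 1 rose, 1 fell and 7 were not called, near the shares over all genes (8.27% higher and 8.56% lower), with a median log2 ratio of 0.05. *Klf4* fell from 14.5 ± 2.08 to 8.11 ± 0.204 CPM (mean ± SD of 2 libraries per group), which gave a log2 ratio of -0.84 (edgeR adjusted p = 0.0145). *Klf2*, known to raise *Thbd* in endothelium, had 14.7 and 13.4 CPM under NC, against 12.4 and 12.2 CPM under si*Airn*, with a log2 ratio of -0.19 (edgeR adjusted p = 0.284). *Egr1*, known to act on *F3*, rose from 30.1 to 36.8 CPM (log2 ratio 0.29, edgeR adjusted p = 0.0474). *Egr1* was not called by DESeq2 (adjusted p = 0.168), without a filter on low counts (0.0678), with upper-quartile normalization (0.053), or with any 1 library left out (0.0704 to 0.201). *Klf4* was not called without NC replicate 1 (0.0935) or NC replicate 2 (0.0899). The AP-1 genes *Jun*, *Junb* and *Fos* were among those not called, at -0.10, 0.05 and 0.28.

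Among 18 tested haemostasis partners of the endothelium, 1 rose and 6 fell, beside 8.27% higher and 8.56% lower over all genes, and the list's median log2 ratio was -0.23 beside 0.00126 for all genes. *F2r*, the thrombin receptor PAR1, rose from 572 ± 9.12 to 909 ± 11.7 CPM (mean ± SD of 2 libraries per group), which gave a log2 ratio of 0.67 (SE 0.06, edgeR adjusted p = 0.00496). Its libraries were 566 and 579 CPM under NC, against 917 and 901 CPM under si*Airn*, and the groups were far apart. The decreases included *Selp* (P-selectin, log2 ratio -0.57), *Entpd1* (which breaks down ADP and so restrains platelets, -0.77), *Ptgs1* (a cyclooxygenase, -0.77) and *Vkorc1* (which recycles vitamin K, -0.46). The other 2 that fell, *Cd55* (-0.82) and *Cd59a* (-0.81), are known as complement regulators rather than clotting genes, and *Cd59a* has a close paralog, *Cd59b*, with which it may share reads. *Pros1*, the gene of protein S and relative of *Gas6*, had 442.5 and 407 CPM under NC, against 397 and 344.5 CPM under si*Airn*, with a log2 ratio of -0.20 (edgeR adjusted p = 0.157). Without NC replicate 1 only *Cd55* of these 7 genes was called and without NC replicate 2 none was, with adjusted p from 0.0424 to 0.085 and from 0.0741 to 0.166. *Vkorc1* was also lost without si*Airn* replicate 2 (0.0573) and after the GC and length trend was removed (log2 ratio -0.26, adjusted p = 0.112).

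The 3 receptors of *Gas6* were not called by edgeR or DESeq2, and 0 had an unadjusted p under 0.05. *Axl* had 304.9 ± 38.5 CPM under NC, against 383 ± 95.6 CPM under si*Airn* (log2 ratio 0.33, edgeR adjusted p = 0.209), *Mertk* 0.12 and *Tyro3* 0.28 on the same log2 scale.

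Among 11 regulators of fibrinolysis, 1 rose and none fell, which is near the shares over all genes (8.27% and 8.56%), while 10 had log2 ratios above 0 and the median was 0.39. *Lrp1*, an endocytic receptor that clears plasminogen activators bound to their inhibitors, rose from 118 to 173 CPM (log2 ratio 0.54, edgeR adjusted p = 0.0277). Its si*Airn* libraries were 149 and 196 CPM, and without si*Airn* replicate 2 the log2 ratio was 0.34. It was not called after removal of the GC and length trend (0.39, adjusted p = 0.0999) or without NC replicate 1 (0.146) or NC replicate 2 (0.169). *Anxa2* and *S100a10*, which together bind plasminogen on the cell surface, had log2 ratios of 0.08 and 0.07 (adjusted p = 0.46 and 0.616).

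Of 21 plasma clotting factors and inhibitors that hepatocytes are known to make, 12 had enough counts for the test. None was called by edgeR's quasi-likelihood test, and DESeq2 called 0. The study's cutoff, with an unadjusted p under 0.05, was passed as higher by 3 of the 12, beside 715 of all 13628 genes tested. Each of these 3 averaged less than 1 CPM under NC. In this list 11 of the 12 had a log2 ratio above 0, with a median of 0.44. The whole list summed to 17.7 and 23.6 CPM under NC, against 23.8 and 32.8 CPM under si*Airn*.

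**Figure D4:**
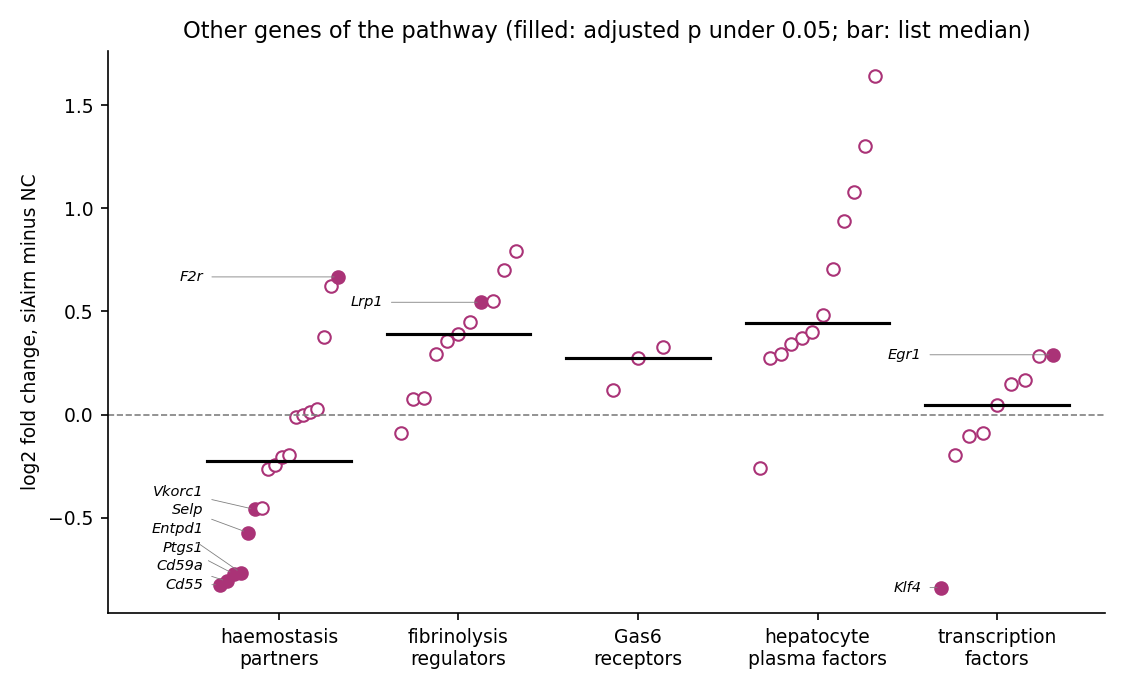
Log2 ratio of si*Airn* to NC for other genes of the pathway in 5 lists, each point 1 tested gene, filled for an adjusted p under 0.05 and with a bar at the list median. *F2r*, *Lrp1* and *Egr1* are the called genes above 0, and *Klf4* and 6 haemostasis partners are those below 0.

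Markers of other cell types were summed in each library, and their calls stand beside 8.27% higher and 8.56% lower over all genes. Kupffer cell and macrophage markers summed to 261 and 331 CPM under NC, against 201 and 168 CPM under si*Airn*, and 8 of 14 tested fell. Stellate cell and fibroblast markers summed to 1915 and 2349 CPM and to 2190 and 2874 CPM, with 4 of 13 rising and sums that overlapped between the groups, and hepatocyte markers to 719 and 903 CPM and to 989 and 1289 CPM, with 2 of 12 rising. None of these markers was at 0 in all libraries. Platelet markers summed to 15.5 to 19.6 CPM in NC and 17.9 to 21.0 CPM in si*Airn* with no call among 5 tested (0 with an unadjusted p under 0.05, 0 by DESeq2), and neutrophil markers to at most 2.04 CPM in any library, with *Mpo* at 0 in each. The direction of *Procr*, *Tfpi* and *Gas6* was that of the endothelial and macrophage markers, with medians of -0.53 for pan-endothelial, -0.58 for LSEC and -0.74 for macrophage lists, and the direction of *Thbd* and *F2r* was that of the stellate and hepatocyte lists (0.37 and 0.38). The part of these markers in the members' results was not tested. Across 12948 genes with a GENCODE M21 entry, the log2 ratio also went down with GC content (Spearman's rho = -0.332) and up with transcript length (0.364), a description across genes, which are not independent.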

How the data were processed

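RNA of primary mouse LSECs was sequenced as single-end reads of 50 bases on a BGISEQ-500 in 4 libraries, grouped by their labels. The authors deposited estimated counts per gene (76.5% to 76.8% whole), and values read here as FPKM, since count over value and library total gave each gene 1 length (97.4% of values within 5% of the gene's mean, over 6425 genes). The group means deposited by the authors were not used. The submitters' processing notes name BWA, Bowtie2, RSEM and hg19, a human build, although the gene IDs are mouse; versions, strand and filters are not given in the sources used here.

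After rounding of the counts, edgeR 4.0.16 was run under R 4.3.3: TMM (factors 0.985 to 1.02), filterByExpr with default settings, quasi-likelihood test without covariates, Benjamini-Hochberg adjustment over 13628 genes. CPM are counts relative to the TMM-scaled library total. SE values are those implied by the F statistic, and 95% intervals use the fit's degrees of freedom. The common biological coefficient of variation was 0.0754. Named genes were the 9 members, *Airn*, pathway genes with an adjusted p under 0.05 and at least 1 CPM, carriers, receptors and inhibitors tied to a member, and the 3 genes nearest *F8*. *Fos*, *Jun* and *Junb* were added after their values were seen. The members and lists, written from general knowledge, were chosen with earlier results of these data known. Sequence shares and overlaps came from GENCODE M21. The calculations were tested on simulated data. Alternatives were DESeq2 1.42.0, other normalizations, filters and tests, limma 3.58.1 on log2(FPKM + 1) and log2(FPKM + 0.1), a replicate block, the study's threshold, removal of a GC and length trend (natural splines with 5 degrees of freedom) and leaving out each library. The result of 1 listed gene is not reported here.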

Additional observations from a re-analysis of the deposited data

How the results depend on the processing

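The count of 4 members called stayed between 4 and 6 in the alternatives that kept all 4 libraries and the adjusted p, and 2 members passed the study's threshold. Leaving out 1 library gave between 0 and 5 members, between 0 and 14 pathway genes (10 with all libraries) and between 0 and 2410 genes in all (2294 with all libraries); the library left alone in its group was then assumed to vary like the pair in the other group. The 0 called without NC replicate 2 came with 15 pathway genes at an unadjusted p under 0.05 by the same edgeR test. The study's threshold gave 1358 genes in all and 12 pathway genes (6 higher, 6 lower, against 3 higher and 7 lower in the main fit). Removal of the GC and length trend gave 1068 genes in all and 8 pathway genes (2 higher, 6 lower). It also gave 4 members, but not the same 4. *F8* was added (log2 fold change -0.64, edgeR adjusted p = 0.0308) and *Procr* was lost (-0.42, adjusted p = 0.0734). The edgeR likelihood-ratio test gave 3140 genes in all and 15 pathway genes (8 higher, 7 lower). With the replicate number as a block, 6 members were called, *F8* (log2 fold change -0.30, adjusted p = 0.00109) and *F3* (0.16, adjusted p = 0.0376) being added, and the totals called were 19 pathway genes and 4841 genes in all. The libraries share only a number, and the deviations of equally numbered libraries from their group means correlated at 0.233 across genes. Removal of the GC and length trend moved the share of higher calls from 1127 of 2294 to 412 of 1068 genes; the cause was not tested. Of the values of single members under an alternative, 109 kept their side of the threshold, 13 lost it and 4 gained it, and no called value changed direction. *Plat*, with 53.00 to 94.00 counts per library, had the lowest depth of the members.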
